A study of Mus musculus with 9 samples.

Results

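Laminins and the integrins that hold muscle cells to them were followed in newborn mouse muscle through 10 genes, chosen by name: the laminin chain genes Lama2, Lama4, Lama5, Lamb1, Lamb2 and Lamc1 and the integrin subunit genes Itga5, Itga6, Itga7 and Itgb1. Each symbol matched 1 gene ID, so the 10 genes are 10 of the 55471 genes counted, and all 10 passed the filter on low counts. RNA was sequenced from the gastrocnemius, a calf muscle, of 5 *Shank3Δ11(-/-)* mice (here KO1 to KO5) and 4 *Shank3(+/+)* wildtype mice (WT1 to WT4), all C57BL/6 and taken at postnatal day 0 to 1, with 1 library per mouse. The knock-outs are homozygous for a germline deletion of Shank3 exon 11, obtained from heterozygous C57BL/6JRj matings, and the allele removes some Shank3 isoforms and leaves others. Shank3 encodes a scaffold protein of synapses that is also present in skeletal muscle. The study left KO2 and KO4 out of its comparison for too few reads, so 3 knock-outs were compared with 4 wildtypes here, and a second fit used all 9 mice.

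Laminins are secreted heterotrimers of an alpha, a beta and a gamma chain that polymerise into the basal lamina, the sheet of matrix around every muscle fibre, vessel and Schwann cell. The trimer of the alpha2, beta1 and gamma1 chains is the main laminin of the muscle fibre surface, and loss of LAMA2 causes a congenital muscular dystrophy. Integrins are membrane receptors made of an alpha and a beta subunit, which link the matrix outside the cell to the cytoskeleton inside. Integrin alpha7beta1 is the chief laminin integrin of muscle fibres, alpha6beta1 a laminin receptor of myoblasts and vessels, and alpha5beta1 a receptor for fibronectin.

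No difference between the genotypes passed the test for any of the 10 genes. In the 7 mice, 0 of 10 had an edgeR p below 0.05, where 2.08% of the 21809 genes tested did, and 0 of 10 were called at p below 0.05 with a false discovery rate (FDR) below 25%, where 0% of all genes were. DESeq2 and limma-voom also gave 0 of 10 with p below 0.05. Over the 21809 genes, 393 by DESeq2, 426 by limma-voom and 453 by edgeR had such a p. With the FDR rule added, DESeq2 called 6 of all genes, limma-voom 0 and edgeR 0. In all 9 mice, 0 of 10 had p below 0.05 (background 2.03%, or 442 genes) and 0 were called (background 0%). The CPM values (counts scaled to a common library size with TMM factors) of knock-outs and wildtypes overlapped for each of the 10 genes. Across all genes the groups did not overlap for 2.84% in the 7 mice and for 0.686% in the 9 mice. The 95% intervals of the 10 fold changes lay between 0.741-fold (Lama5) and 1.35-fold (Itga6), so larger differences of either sign lay outside them. The edgeR p-values set the difference between genotypes against the spread between mice. The 2-sided exact permutation test can give no p below 0.0571 for 3 against 4 mice, so it cannot pass 0.05 there. For 5 against 4 it can give none below 0.0159.

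The 9 libraries held 26444372 (KO5) to 40471957 (KO4) counts, and 3.81% to 7.88% of them were mitochondrial. KO4 thus had the highest total in the table, and KO2 had 28211941 counts. A gene of the 10 was covered by 1931 to 22939 counts in a mouse. Shank3 itself, counted over the whole gene, spanned 25.7 to 35.04 CPM in the knock-outs and 32.4 to 38.5 CPM in the wildtypes, and a gene-level count does not show whether exon 11 is present. The labels give no sex. The mean level of Y-linked genes was high (5.11 to 5.53 log2 CPM) in KO1, KO2, KO4, WT1 and WT2 and low (-3.64 to -2.73) in KO3, KO5, WT3 and WT4. The 12 muscle fibre markers summed to 63586 to 71868 CPM in the 4 wildtypes and 66170 to 70155 CPM in the 3 knock-outs. Of these markers, 0 of 12 were at 0, so the label of the tissue held.

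**Figure D1:**
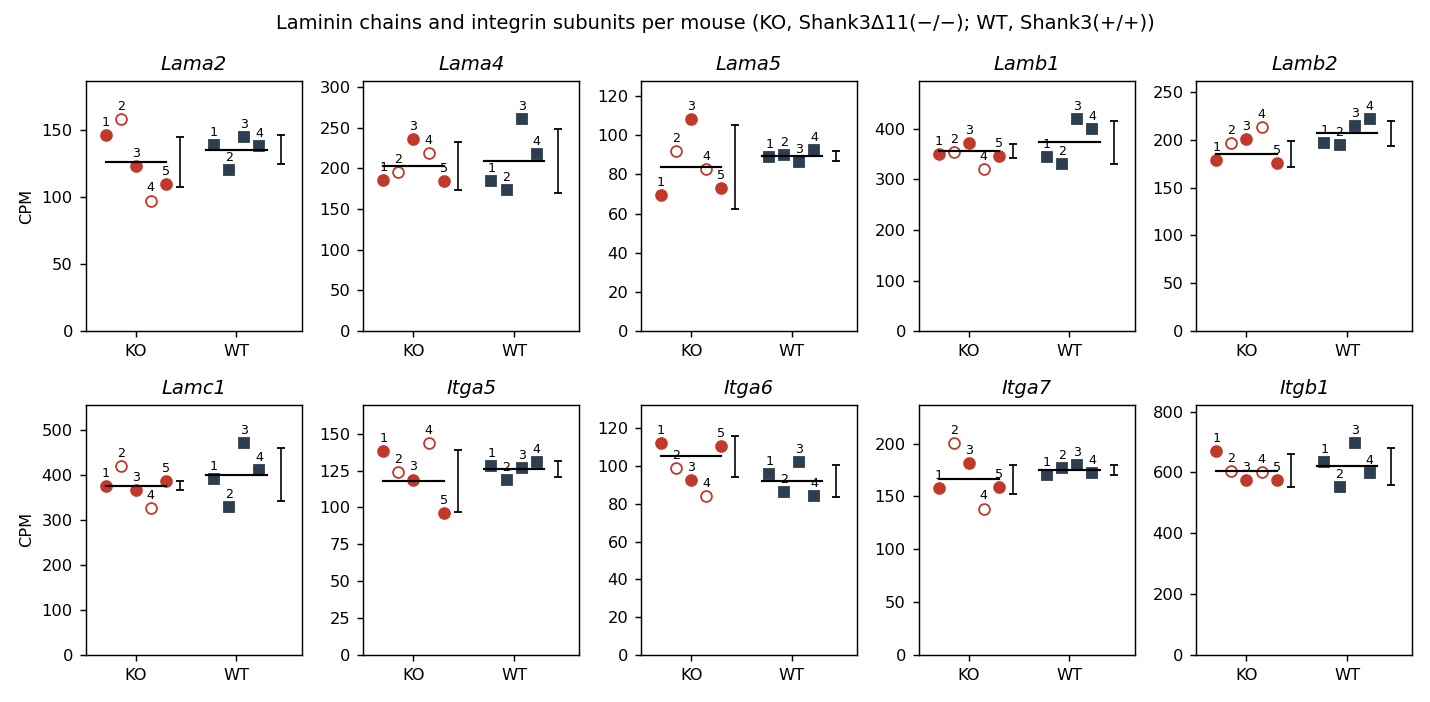
CPM (vertical axes, from 0) of each laminin chain and integrin subunit gene in each mouse, numbered by replicate, with red circles for knock-outs (open for KO2 and KO4, left out of the main comparison) and squares for wildtypes. Horizontal lines are the means and bars the SD of 3 knock-outs and 4 wildtypes, and the values of the genotypes overlap in all 10 panels.

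Of the laminin alpha chains, Lama2 (ENSMUSG00000019899, chromosome 10, 26980036 to 27619758, reverse strand, mm10) encodes the alpha2 chain of the muscle fibre basal lamina. Lama2 read 146, 158, 123, 97.5 and 109.9 CPM in KO1 to KO5 and 139, 120.1, 145 and 138 CPM in WT1 to WT4. The lowest 3 values were those of KO4, KO5 and WT2 and the highest was that of KO2, so both ends of the range were knock-outs. The means were 126.41 ± 18.4 CPM (SD, n = 3) in the knock-outs against 136 ± 10.8 CPM (SD, n = 4) in the wildtypes, a log2 fold change of -0.11 (SE 0.12, 95% interval -0.37 to 0.15, edgeR p = 0.380, exact permutation p = 0.514). With KO2 and KO4 added, the log2 fold change was -0.09 (edgeR p = 0.498, exact permutation p = 0.508). Exons of Lama2 share 631 bases with the gene Gm48084 on the opposite strand, and the strand setting of the counting is not given in the sources used here.

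Lama4 (ENSMUSG00000019846, chromosome 10, 38965515 to 39110188, forward strand) encodes the alpha4 chain, found around vessels, peripheral nerve and the developing muscle fibre. Lama4 read 186, 195, 236, 219 and 185 CPM in KO1 to KO5 and 185, 174, 260.3 and 218 CPM in WT1 to WT4. WT3 and KO3 were the highest and WT2 the lowest, and the knock-outs lay inside the wildtype range. The means were 202 ± 29.4 CPM (SD, n = 3) in the knock-outs against 209 ± 39.0 CPM (SD, n = 4) in the wildtypes, a log2 fold change of -0.06 (SE 0.16, 95% interval -0.40 to 0.29, edgeR p = 0.728, exact permutation p = 0.914). Its sign followed single mice: the log2 fold change was 0.08 without WT3 and 0.00 without KO1 or without KO5. With KO2 and KO4 added, it was -0.03 (edgeR p = 0.797, exact permutation p = 0.905).

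Lama5 (ENSMUSG00000015647, chromosome 2, 180176373 to 180225859, reverse strand) encodes the alpha5 chain of vessel walls, epithelia and the neuromuscular junction. Lama5 read 69.4, 91.9, 108, 82.7 and 73.3 CPM in KO1 to KO5 and 89.0, 89.7, 86.5 and 92.6 CPM in WT1 to WT4. The 4 wildtypes lay close together, and the 5 knock-outs reached past them at both ends, with KO3 the highest and KO1 the lowest mouse. The means were 83.6 ± 21.4 CPM (SD, n = 3) in the knock-outs against 89.4 ± 2.51 CPM (SD, n = 4) in the wildtypes, a log2 fold change of -0.11 (SE 0.15, 95% interval -0.43 to 0.22, edgeR p = 0.489, exact permutation p = 0.400). Without KO3 the log2 fold change was -0.34 (SE 0.11, edgeR p = 0.0138, FDR 1.00, exact permutation p = 0.133, the smallest that 2 against 4 mice can give here), and without KO1 it was 0.01. The fit of all 9 mice gave -0.07 (edgeR p = 0.566, exact permutation p = 0.460).

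The beta chain Lamb1 (ENSMUSG00000002900, chromosome 12, 31265234 to 31329644, forward strand) is the partner of alpha2 over most of the fibre surface. Lamb1 read 349, 353, 372, 321 and 346 CPM in KO1 to KO5 and 344, 330.4, 419 and 399 CPM in WT1 to WT4. WT3 and WT4 were the highest and KO4 the lowest, with the other knock-outs inside the wildtype range. The means were 356 ± 14.0 CPM (SD, n = 3) in the knock-outs against 373 ± 42.4 CPM (SD, n = 4) in the wildtypes, a log2 fold change of -0.08 (SE 0.12, 95% interval -0.34 to 0.18, edgeR p = 0.518, exact permutation p = 0.571). The fit of all 9 mice gave -0.10 (edgeR p = 0.316, exact permutation p = 0.286).

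Lamb2 (ENSMUSG00000052911, chromosome 9, 108479736 to 108490530, forward strand) encodes the beta2 chain, which is concentrated in the synaptic part of the muscle basal lamina. Lamb2 read 179, 196, 201, 213 and 175 CPM in KO1 to KO5 and 196, 194, 214 and 221 CPM in WT1 to WT4. KO1 and KO5 lay below every wildtype, KO2, KO3 and KO4 within the wildtype range. The means were 185 ± 13.6 CPM (SD, n = 3) in the knock-outs against 207 ± 13.4 CPM (SD, n = 4) in the wildtypes, a log2 fold change of -0.17 (SE 0.10, 95% interval -0.40 to 0.06, edgeR p = 0.135, exact permutation p = 0.171). This was the most negative of the 10 fold changes in the 7 mice, and it did not pass the test. In all 9 mice it was -0.10 (edgeR p = 0.292, exact permutation p = 0.238).

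The gamma chain Lamc1 (ENSMUSG00000026478, chromosome 1, 153218922 to 153332786, reverse strand) enters nearly every laminin of muscle. Lamc1 read 377, 421, 367, 327 and 387 CPM in KO1 to KO5 and 391, 329, 472 and 411 CPM in WT1 to WT4. WT3 was the highest and KO4 and WT2 the lowest. The means were 377 ± 9.81 CPM (SD, n = 3) in the knock-outs against 401 ± 59.0 CPM (SD, n = 4) in the wildtypes, a log2 fold change of -0.10 (SE 0.13, 95% interval -0.38 to 0.19, edgeR p = 0.463, exact permutation p = 0.629). With KO2 and KO4 added, the log2 fold change was -0.09 (edgeR p = 0.423, exact permutation p = 0.476).

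**Figure D2:**
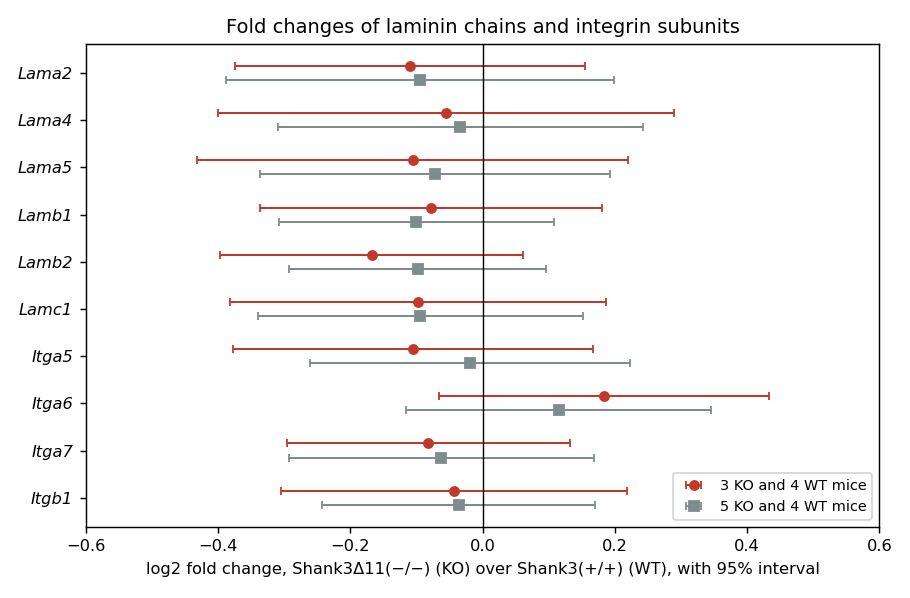
Log2 fold change of knock-outs over wildtypes (horizontal axis) for each gene, with the 95% interval, from edgeR in the 7 mice and in all 9 mice. Every interval crosses 0, and Itga6 alone lies to the right of 0, at 0.18 in the 7 mice and 0.11 in the 9 mice.

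Of the integrin alpha subunits, Itga7 (ENSMUSG00000025348, chromosome 10, 128933818 to 128958282, forward strand) pairs with beta1 in the laminin receptor of mature fibres and myotendinous junctions. Itga7 read 158, 201, 182, 139 and 159 CPM in KO1 to KO5 and 170.2, 177, 180.1 and 172 CPM in WT1 to WT4. The wildtypes spanned 170.2 to 180.1 CPM, while the knock-outs held both the highest mouse, KO2, and the lowest, KO4. The means were 166 ± 13.5 CPM (SD, n = 3) in the knock-outs against 175 ± 4.45 CPM (SD, n = 4) in the wildtypes, a log2 fold change of -0.08 (SE 0.10, 95% interval -0.30 to 0.13, edgeR p = 0.414, exact permutation p = 0.286). The fit of all 9 mice gave -0.06 (edgeR p = 0.569, exact permutation p = 0.540). Its exons share 9 bases with Mettl7b on the opposite strand.

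Itga6 (ENSMUSG00000027111, chromosome 2, 71745616 to 71858416, forward strand) encodes the alpha6 subunit, present on myoblasts, endothelium and Schwann cells. Itga6 read 112, 99.0, 92.7, 84.3 and 111 CPM in KO1 to KO5 and 96.0, 86.4, 102 and 84.0 CPM in WT1 to WT4. KO1 and KO5 were the highest mice, above WT3, and KO2, KO3 and KO4 lay within the wildtype range. The means were 105 ± 10.9 CPM (SD, n = 3) in the knock-outs against 92.2 ± 8.54 CPM (SD, n = 4) in the wildtypes, a log2 fold change of 0.18 (SE 0.11, 95% interval -0.07 to 0.43, edgeR p = 0.132, exact permutation p = 0.171). Blocked by replicate number in the 7 mice, where only KO1, KO3, WT1 and WT3 share a number, it was 0.04. The edgeR p of that value was 0.766, against an edgeR p of 0.132 without the block. The exact permutation p of 0.171 is also without the block, and no blocked one was computed. Itga6 was the only gene of the 10 with a positive fold change in the unblocked comparison. In all 9 mice its log2 fold change was 0.11 (edgeR p = 0.299, exact permutation p = 0.317). The summed level of the 10 endothelial markers was 954 to 997 CPM in the 3 knock-outs and 875 to 936 CPM in the wildtypes, with 785 in KO2 and 1122 in KO4. All 10 had a higher value in the 3 knock-outs, 0 of 10 passed p below 0.05, and none was at 0. The 10 Schwann cell markers summed to 309, 251 and 449 CPM in KO1, KO3 and KO5, 195 CPM in KO4, 329.98 CPM in KO2 and 239 to 279 CPM in the wildtypes, with none at 0. Of them, 6 had a higher and 4 a lower value, and 2 had p below 0.05 with an FDR of 1.00. The 8 satellite cell and myoblast markers summed to 503 to 614 CPM in the 3 knock-outs and to 580.2 to 723 CPM in the wildtypes, with 696 in KO2 and 464 in KO4. Of them 7 of 8 were lower in value in the 3 knock-outs, 1 of them, Myod1, with p below 0.05 (FDR 1.00), and none was at 0. The part of these cells in the Itga6 value was not tested. In bulk tissue, fewer cells of a type and less RNA per cell cannot be told apart.

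Itga5 (ENSMUSG00000000555, chromosome 15, 103344286 to 103366763, reverse strand) encodes the alpha5 subunit of the fibronectin receptor and lies 13.8 Mb from Shank3 on the same chromosome. Itga5 read 138, 124, 119, 144 and 96.5 CPM in KO1 to KO5 and 128, 119, 127 and 131 CPM in WT1 to WT4. KO4 and KO1 were the highest mice and KO5 the lowest, so the 3 knock-outs of the comparison enclosed the wildtypes. The means were 118 ± 20.9 CPM (SD, n = 3) in the knock-outs against 126.05 ± 5.21 CPM (SD, n = 4) in the wildtypes, a log2 fold change of -0.10 (SE 0.12, 95% interval -0.38 to 0.17, edgeR p = 0.414, exact permutation p = 0.571). Without KO5 the log2 fold change was 0.02. With KO2 and KO4 added, it was -0.02 (edgeR p = 0.865, exact permutation p = 0.873). KO5 also had the highest sum of adipocyte markers, 1187 CPM against 230.2 to 459.5 CPM in the other 8 mice. Of the 7 markers, 5 passed the filter. The part of adipocytes in the Itga5 value was not tested.

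Itgb1 (ENSMUSG00000025809, chromosome 8, 128685654 to 128733200, forward strand) encodes the beta1 subunit with which alpha5, alpha6 and alpha7 pair. Itgb1 read 669, 605, 574, 602 and 574 CPM in KO1 to KO5 and 633, 553, 697 and 599 CPM in WT1 to WT4. WT3 and KO1 were the highest and WT2 the lowest mouse, and all 5 knock-outs lay inside the wildtype range. The means were 606 ± 55.0 CPM (SD, n = 3) in the knock-outs against 620.4 ± 60.8 CPM (SD, n = 4) in the wildtypes, a log2 fold change of -0.04 (SE 0.12, 95% interval -0.30 to 0.22, edgeR p = 0.726, exact permutation p = 0.743). Without WT3 the log2 fold change was 0.03. The fit of all 9 mice gave -0.04 (edgeR p = 0.712, exact permutation p = 0.667).

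By direction alone, 9 of the 10 genes had a lower mean in the knock-outs in both sets of mice, and their median was -0.09 in the 7 mice and -0.07 in the 9 mice on the log2 scale. Among all genes 52.2% were lower in the 7 mice, with a median of -0.01, and 49.5% in the 9 mice, with a median of 0.00. The median size of a log2 fold change over all genes, of either sign, was 0.10 and 0.09. The 10 genes stood above 91.0% (Lama5) to 99.3% (Itgb1) of the tested genes in CPM. Their differences were not set beside those of genes at that level. The direction did not hold in both sets of mice set apart by their Y-linked level. Among the 5 mice of high level (KO1, KO2, KO4 against WT1, WT2), 8 of 10 genes had a higher mean log2 CPM in the knock-outs and 2 a lower one, with a median difference of 0.04. Over all 21735 genes, 48.8% were higher in these mice, with a median difference of -0.01. Among the 4 of low level (KO3, KO5 against WT3, WT4), 9 of 10 were lower and only Itga6 higher, with a median difference of -0.19, where 49.0% of all genes were lower and their median was 0.01. The sign turned between the sets for 7 of 10 genes, and the share of all genes that turned was not counted. For Lama2, Lamb1 and Lamb2 the difference in the high set was near 0. The high set also holds KO2 and KO4, which were left out of the main comparison. In the high and the low set the difference was 0.02 and -0.28 for Lama2, 0.16 and -0.19 for Lama4, 0.01 and -0.19 for Lamb1, and 0.00 and -0.22 for Lamb2. It was 0.06 and -0.23 for Lamc1, 0.13 and -0.27 for Itga5, and 0.08 and -0.17 for Itgb1. The other 3 kept their sign: Lama5 (-0.14 and -0.01) and Itga7 (-0.08 and -0.05) were lower in both sets, and Itga6 (0.10 and 0.13) higher in both. A test of the difference between the sets in all 9 mice (the interaction of genotype with Y-linked level in edgeR, chosen after seeing the data) had p below 0.05 for 0 of 10 genes, against a background of 4.08% of 21735 genes. The smallest p among the 10 was that of Itga5, at 0.0690 (FDR 0.980).

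Spread between mice was taken gene by gene, without that of other genes beside it. The coefficient of variation over the 9 mice ran from 7.68% (Itgb1) and 7.81% (Lamb2) to 14.9% (Lama2), and the highest mouse exceeded the lowest by 1.26-fold (Lamb2, Itgb1) to 1.62-fold (Lama2). KO4 was the lowest mouse for Lama2, Lamb1, Lamc1 and Itga7, and WT3 the highest for Lama4, Lamb1, Lamc1 and Itgb1. Together the 10 genes took 2172 to 2703 CPM. Of the 45 pairs of genes, 36 had a positive Pearson r over the 9 mice, with a median r of 0.30, and 0 had an adjusted p below 0.05. The strongest was the beta and gamma chain pair Lamb1 and Lamc1, with r = 0.83 (permutation p = 0.00612, adjusted 0.275) and Spearman's rho = 0.73 (permutation p = 0.0311, adjusted 0.386). Without WT3 and WT4, the mice farthest from the median of Lamb1, r was 0.64, and within the high and the low Y-linked sets it was 0.93 and 0.81. The strongest negative pair was Lamb2 and Itga6, with r = -0.74 (permutation p = 0.0236, adjusted 0.291) and rho = -0.62 (permutation p = 0.0843, adjusted 0.478), and r = -0.52 without KO5 and WT4. Within the high and the low sets it was -0.85 and -0.76. All of these r pool both genotypes without a term for genotype, also within the sets, so a difference between genotypes enters them. The points share 1 table and 1 scaling.

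Levels of different genes were compared as CPM per kilobase of exon, over the union of a gene's exons, as mean ± SD of 9 mice. Itgb1 stood highest at 149.9 ± 11.5, followed by Lamc1 at 46.8 ± 5.48, Lamb1 at 36.2 ± 3.21, Lamb2 at 32.7 ± 2.56 and Itga5 at 25.4 ± 2.74. Itga7 (21.1 ± 2.18), Lama4 (17.1 ± 2.39), Itga6 (10.7 ± 1.19), Lama2 (8.01 ± 1.19) and Lama5 (7.64 ± 0.998) followed. Of neighbours in this order, Itgb1 and Lamc1 did not overlap over the 9 mice, nor did Lama4 and Itga6, and all other neighbours overlapped. Within a mouse, Lamc1 was above Lamb1 in 9 of 9 mice, Lamb2 above Itga5 in 9 of 9, and Lama2 above Lama5 in 6 of 9. The order in the middle rested on the length used. With the length of the longest transcript, Lamb1 (62.1) came before Lamc1 (50.8), and Itga7 (42.5) before Lamb2 (35.4), Lama4 (34.1) and Itga5 (28.3), while Itgb1 (160.4) stayed first and Lama5 (7.64) last.

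**Figure D3:**
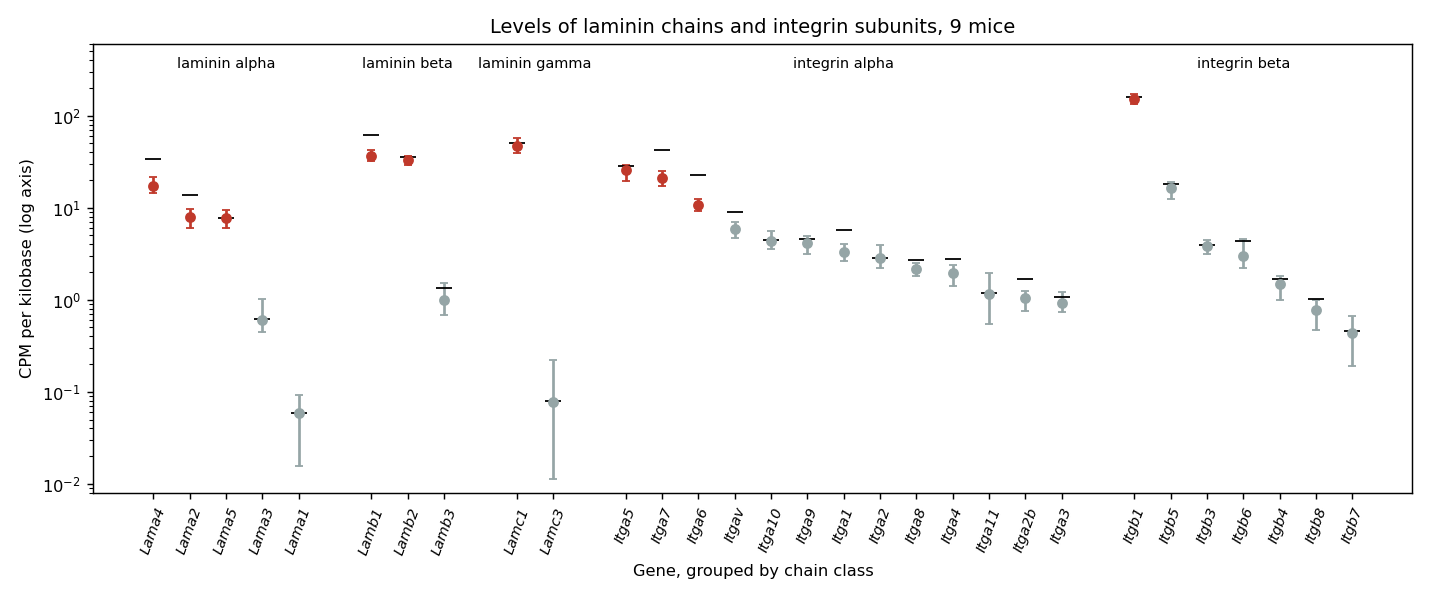
CPM per kilobase of exon (log axis) for laminin chains and integrin subunits, dots at the mean and bars over the range of 9 mice, with a black dash where the longest transcript is used as the length. Itgb1, at 149.9, stands above all others, and Lama1, Lama3, Lamb3 and Lamc3 each have a mean below 1 over the union of exons.

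Lama2, Lama4, Lama5, Lamb1 and Lamb2 held nearly all the alpha and beta chain message of the muscle. The 3 alpha chain genes made up 98.0% of the per-kilobase level of the 5 laminin alpha chains, and the 2 beta chain genes 98.6% of the 3 beta chains measured. The epithelial chains Lama3 (0.608 CPM per kilobase) and Lamb3 (0.990) were low. Lama1 (0.0585) and Lamc3 (0.0772) were lower still. Itga5, Itga6 and Itga7 made up 67.3% of the 13 integrin alpha subunits listed, with Itgav (5.91), Itga10 (4.31), Itga9 (4.15) and Itga1 (3.33) next. Itgb1 made up 85.2% of the 7 beta subunits listed, and Itgb5 (16.6) and Itgb3 (3.87) came next. With the longest transcript as length these shares were 98.8%, 98.6%, 72.2% and 84.5%.

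**Figure D4:**
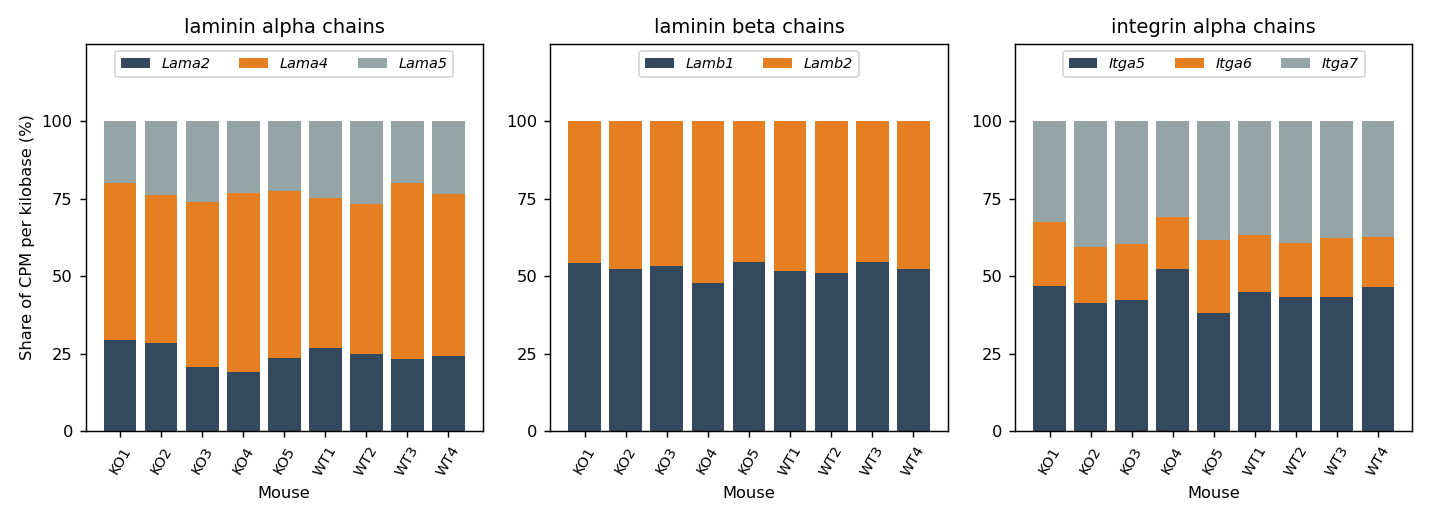
Share (percent, from 0 to 100) that each chain took of the per-kilobase level of its group in each mouse, for laminin alpha chains, laminin beta chains and integrin alpha subunits. Lama4 took 47.7% to 57.8% of the 3 alpha chains across the mice, and KO4 had the lowest shares of Lama2, Lamb1 and Itga7.

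The mix of chains overlapped between the genotypes. Of the 3 laminin alpha chains, Lama4 took 52.1% ± 3.65 (SD, n = 9), Lama2 24.5% ± 3.42 and Lama5 23.4% ± 2.31. Lama2 took 24.5% ± 4.49 in the 3 knock-outs and 24.9% ± 1.48 in the 4 wildtypes, with KO4 the lowest mouse at 19.0% and KO1 the highest at 29.4%. Lamb1 exceeded Lamb2 by 1.11-fold ± 0.09 over the 9 mice, and KO4, at 0.92, was the only mouse where Lamb2 was higher. With the longest transcript as length, Lamb1 was the higher of both in every mouse, by 1.76-fold ± 0.15. Itga5 took 44.3% of the 3 integrin alpha subunits, Itga7 36.9% and Itga6 18.7%. By the longest transcript the order was Itga7 45.5%, Itga5 30.4% and Itga6 24.0%. The share of Itga6 was 20.9% ± 2.89 in the 3 knock-outs and 17.8% ± 1.27 in the wildtypes, and the groups overlapped, with KO3 at 18.1% inside the wildtype range. The ratio of Itga7 to Itga6, the latter present on myoblasts, endothelium and Schwann cells, was 1.57 for KO1, 1.60 for KO5 and 2.19 for KO3. In the wildtypes it was 1.98, 2.28, 1.96 and 2.29, so KO1 and KO5 lay below all wildtypes and KO3 among them, and KO2 (2.26) and KO4 (1.83) lay inside the wildtype range and below it. The 3 alpha subunits summed to 0.38 of Itgb1, or 0.58 by the longest transcript.

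Around these genes, 75 further genes of the basal lamina and of integrin adhesion were counted, all tested. None passed p below 0.05 in the 7 mice, where 2.08% of all genes did. Of the 75, 37 were higher and 38 lower, with a median of -0.02 on the log2 scale. Of the 5 other laminin chains, 1 was higher and 4 lower. The gene nearest to a call in each direction was Lamc3 (0.644 against 0.372 CPM, log2 fold change 0.74, edgeR p = 0.371, exact permutation p = 0.514) and Lama3 (5.45 against 6.61 CPM, log2 fold change -0.28, edgeR p = 0.138, exact permutation p = 0.229), both low. Of 14 other basal lamina components 2 were higher and 12 lower, with a median of -0.05. Among them were Sparc, which encodes a collagen-binding matrix protein (2718 against 2484 CPM, log2 fold change 0.12, edgeR p = 0.339, exact permutation p = 0.229), and Frem2, of the epithelial basement membrane (49.6 against 61.4 CPM, log2 fold change -0.32, edgeR p = 0.177, exact permutation p = 0.343). Of 6 ligands of alpha5 or related integrins, 4 were higher and 2 lower. The lowest p were those of Vtn, vitronectin (11.0 against 8.58 CPM, log2 fold change 0.34, edgeR p = 0.127, exact permutation p = 0.400), and Tnc, tenascin C (234 against 242 CPM, log2 fold change -0.06, edgeR p = 0.632, exact permutation p = 0.686).

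Of the 16 other integrin subunits, 11 were higher and 5 lower, with a median of 0.06. The lowest p were those of Itgb6 (24.4 against 19.3 CPM, log2 fold change 0.33, edgeR p = 0.137, exact permutation p = 0.229) and Itga4, a fibronectin and VCAM1 receptor subunit (25.4 against 29.0 CPM, log2 fold change -0.20, edgeR p = 0.286, exact permutation p = 0.457). Among 14 other laminin receptors and the enzymes that glycosylate dystroglycan, 8 were higher and 6 lower. The lowest p of those with a higher value was that of the proteoglycan gene Sdc4 (37.9 against 33.9 CPM, log2 fold change 0.15, edgeR p = 0.222, exact permutation p = 0.114). Dag1, which encodes dystroglycan, the other main laminin receptor of fibres, read 382.5 ± 43.0 CPM in the 3 knock-outs and 409.8 ± 63.3 in the wildtypes (log2 fold change -0.11, edgeR p = 0.462, exact permutation p = 0.571). Of 20 genes of the adhesion complex inside the cell, 11 were higher and 9 lower, with a median of 0.00, and the lowest p were those of Lims2 (15.1 against 12.6 CPM, log2 fold change 0.25, edgeR p = 0.157, exact permutation p = 0.229) and the cytoskeletal linker gene Vcl (137 against 155 CPM, log2 fold change -0.19, edgeR p = 0.242, exact permutation p = 0.457). In all 9 mice, 35 of the 75 were higher and 40 lower. Sdc4 alone had p below 0.05 (log2 fold change 0.22, edgeR p = 0.0446, FDR 1.00, exact permutation p = 0.0317). That is 1.33% of the 75 genes, below the 2.03% of all genes.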

How the data were processed

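Gastrocnemius RNA of 5 *Shank3Δ11(-/-)* and 4 *Shank3(+/+)* mice was sequenced, and the authors deposited 1 table of raw counts per gene. Per the study's methods and the submitters' notes, reads were mapped to mm10 with HISAT2 and counted with featureCounts. For the annotation release, the strand setting and reads that map to several genes, the setting was not given in the sources used here. An antisense gene could therefore add counts to a gene it overlaps. No column of the table was left unused.

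Counts were tested for all genes with the quasi-likelihood test of edgeR 4.0.16 in R 4.3.3, with robust estimation, TMM factors and a filter by filterByExpr (minimum count 10, minimum total 15). The comparison used 3 knock-outs and 4 wildtypes, as in the study, without KO2 and KO4. Calls needed p below 0.05 and a Benjamini-Hochberg FDR below 25%, the rule of the study. The study used limma and reports differentially expressed genes by that rule, where edgeR and limma-voom called 0 here. The reason for the difference was not tested. CPM values use TMM factors over all 9 mice, and log2 CPM a prior count of 2. Exact two-sided permutation tests and permutation tests of correlations with 100000 resamples used scipy 1.17.1 in Python 3.11.15, and plots matplotlib 3.10.9. The steps were tested on simulated data.

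Symbols, positions and exon lengths came from GENCODE M21 on mm10, in which 55144 of 55471 gene IDs were found. The genes and lists were chosen with earlier results of these data known. Named were all 10 genes and, of each list of related genes, up to 3 per direction with p below 0.05 in the 7 mice, or otherwise the gene with the smallest p in each direction. Some genes that this rule or the lists include are not reported here. Dag1, Itgav and other subunits beside these were named after their values were seen, and the marker lists give cell types.

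Alternatives were all 9 mice, no filter, at least 10 counts in every mouse, RLE factors, library totals, DESeq2 1.42.0, limma-voom (limma 3.58.1), the replicate number as a block, edgeR without robust estimation, the Y-linked level as a covariate, leaving out each of the 7 mice, and the longest transcript as the gene length. After seeing the data, all 9 mice with DESeq2, with limma-voom and with the Y-linked covariate, and the interaction with the Y-linked level, were added. Depth was 26444372 to 40471957 counts per mouse, and each of the 10 genes had 1931 to 22939 counts in a mouse.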

Additional observations from a re-analysis of the deposited data

How the results depend on the processing

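Under 21 alternatives for each of the 10 genes, 7 of which leave out a mouse, 201 of 210 values kept their sign and stayed uncalled, 9 turned their sign, and 1 had p below 0.05. With the replicate number as a block, the log2 fold change of Itga5 was 0.00730 in the 7 mice and 0.0558 in all 9, and that of Lama4 was 0.0118 in all 9. Only KO1, KO3, WT1 and WT3 share a number within the 7 mice, so blocked values and counts of genes there rest on them. In all 9, KO5 has no wildtype of its number. In the 7 mice the block also moved Itga6 from 0.18 to 0.04, Lama5 from -0.11 to -0.02, Lamc1 from -0.10 to -0.21, Itga7 from -0.08 to -0.05 and Itgb1 from -0.04 to -0.10, and none of the 10 had p below 0.05. Same-numbered mice correlated with r of 0.38, 0.11, 0.40 and 0.05 in the deviations of log2 CPM from the mean of their genotype. These r, and those that follow, were taken over the 5000 genes that varied most in these deviations. KO1 and KO3 correlated best with the wildtype of their number, and KO2 and KO4 with another (0.28 with WT1 and 0.07 with WT3). The labels do not say what the number stands for, so the mice were not taken as pairs. Whether mice of the same number belong together cannot be told from these correlations. Leaving out 1 mouse gave ranges of -0.18 to 0.0756 for Lama4, -0.34 to 0.0136 for Lama5, -0.23 to 0.0174 for Itga5 and -0.12 to 0.0260 for Itgb1, whose signs turned. The other genes kept their sign, with ranges of -0.23 (without KO1) to -0.02 (without KO5) for Lama2, -0.13 (without WT2) to -0.01 (without WT3) for Lamb1, -0.23 to -0.13 for Lamb2, -0.18 (without WT2) to 0.00 (just below 0, without WT3) for Lamc1, 0.14 to 0.27 for Itga6 and -0.15 (without KO3) to -0.04 (without KO1) for Itga7. The number of the 10 genes with p below 0.05 was then 0 to 1, the 1 being Lama5 without KO3. The lowest FDR of any of the 10 under any alternative was 0.998. Over all genes, 453 had p below 0.05, against 972 with no filter, 844 with the block in the 7 mice, and 224 (without KO5) to 968 (without KO1) when 1 mouse was left out (794 without KO3). The number called was 0, against 1 with no filter, 6 by DESeq2, 9 with the block in the 7 mice, 2 with the block in all 9, 7 by DESeq2 in all 9 (chosen after seeing the data), and 0 to 15 when 1 mouse was left out (15 without KO1, 4 without KO3, 1 without WT2). Of the 75 related genes, 0 had p below 0.05, against 1 in all 9 mice, 1 with the block in the 7 mice, 1 with the Y-linked covariate, 1 each by DESeq2 and limma-voom in all 9 mice (both chosen after seeing the data), and 0 to 4 when 1 mouse was left out (4 without KO3, 1 each without KO1, WT2 and WT3). The causes were not tested.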

Other observations

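Sdc4, a heparan sulfate proteoglycan gene read 37.9, 41.1, 35.4, 42.5 and 40.3 CPM in KO1 to KO5 and 35.04, 28.7, 34.8 and 37.0 CPM in WT1 to WT4. The groups overlapped, with KO3 below WT4 (exact permutation p = 0.0317). It was 1 of the 75 related genes with p below 0.05 in all 9 mice, or 1.33%, where 2.03% of all genes had such a p. Of the 20 groups formed by the 10 genes and the 2 genotypes (5 and 4 mice each), 0 had a mouse far enough from the others to stand apart by Dixon's test at the 95% level. Chance alone would give about 1 in 20.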
